A study of Arabidopsis thaliana with 2 samples.

Results

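The ARGONAUTE genes of Arabidopsis thaliana were examined in long reads from floral buds. The family has 10 members, AGO1 to AGO10, and a read was counted for a member when its exons overlapped that gene's exons on the same strand. Of 522930.8 aligned reads in the series, 199.5 fell on the family, with 76.5 in replicate 1 and 123 in replicate 2. The members are 10 of 27444 protein-coding nuclear genes. The series holds 2 biological replicates of 1 condition, wild-type Col-0 inflorescences with unopened buds and no mutation, transgene or treatment. Each library was built from 10 µg of RNA, with an RNA integrity number of 9.0 for replicate 1 and 9.2 for replicate 2. The reads are full-length non-chimeric PacBio reads, each taken from a single cDNA with a poly(A) tail. A whole inflorescence mixes sepals, petals, stamens, carpels and meristems, so more cells of a type and more RNA per cell cannot be told apart.

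ARGONAUTE proteins hold a small RNA and use it to find matching transcripts or chromatin. In Arabidopsis they form 3 clades. AGO1, AGO5 and AGO10 lie in the clade of the main microRNA effector, AGO1, which cuts or represses target mRNAs. AGO10 binds miR165 and miR166 and protects the shoot meristem, and AGO5 acts in the germ line. AGO2, AGO3 and AGO7 form another clade, with AGO2 known for antiviral defence and AGO7 for binding miR390 to start trans-acting siRNA production. AGO4, AGO6, AGO8 and AGO9 form the clade of RNA-directed DNA methylation, in which siRNAs guide cytosine methylation at transposons and repeats, and AGO9 is known for its role in the ovule. Some members are themselves targets of microRNAs: miR168 pairs with AGO1, and miR403 pairs with AGO2.

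The microRNAs and their sites in the family are shown first because a cut there would leave a 5′ end at a known base. The sequences were read from the RefSeq TAIR10.1 genome, 5′ to 3′, in the letters of DNA. Capitals mark microRNA bases 10 and 11 and the site bases opposite them, between which ARGONAUTE cuts.
miR168a: tcgcttggtGCaggtcgggaa
AGO1 site: ttcccgagctGCatcaagcta
miR403: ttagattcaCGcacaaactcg
AGO2 site: ggagtttgtgCGtgaatctaa
AGO3 site: gatgtttgtgCGtgaatctaa
miR168b has the same mature sequence as miR168a. The AGO1 site lies in the coding region at chr1:17891529-17891549 on the minus strand, with 3 mismatches to miR168a, of which 1 is a G:U pair. Counted from the 5′ end of the microRNA, and with the site written as its complement, the mismatches are C2A, G8A and G14C. The AGO2 site lies in the 3′ UTR at chr1:11185223-11185243 on the plus strand, with the single mismatch G21C. The AGO3 site lies in the 3′ UTR at chr1:11192399-11192419 on the plus strand, with T19A, C20T and G21C. The next best match in the same transcript had 7 mismatches in AGO1, 9 in AGO2 and 8 in AGO3.

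Of the 10 members, 8 had at least 1 read over both replicates, against 71.7% of all protein-coding genes. At least 1 read in each replicate was found for 6 members (58.4% of all genes), and at least 10 reads for 5 members (35.9% of all genes). AGO1, AGO4, AGO9, AGO5 and AGO10 held 193.5 of the 199.5 reads, while AGO2 had 4 reads, AGO3 and AGO6 had 1 read each, and AGO7 and AGO8 had none. Levels are given as RPM (reads per 1000000 reads assigned to nuclear genes). Those reads numbered 253011.5 in replicate 1 and 239557.7 in replicate 2. Intervals on read counts are exact 95% Poisson intervals and cover counting error only.

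AGO1 (AT1G48410) had 25.5 reads in replicate 1 and 36 in replicate 2, or 101 RPM (67.1 to 150.6) and 150.3 RPM (105 to 208). AGO4 (AT2G27040) had 16 and 27 reads in replicates 1 and 2, or 63.2 RPM (36.2 to 103) and 113 RPM (74.3 to 164). AGO9 (AT5G21150) had 19 and 22 reads, or 75.1 RPM (45.2 to 117) and 91.8 RPM (57.6 to 139). In these 3 genes the replicates overlapped in their intervals. AGO10 (AT5G43810) had 10 and 15 reads, or 39.5 RPM (18.95 to 72.7) and 62.6 RPM (35.1 to 103). AGO5 (AT2G27880) was the member whose replicates stood farthest apart, with 2 reads in replicate 1 and 21 in replicate 2, or 7.91 RPM (0.957 to 28.6) and 87.7 RPM (54.3 to 134). Its ratio of replicate 2 to replicate 1 was 11.1 (95% interval 2.71 to 97.6), against 1.49 (0.859 to 2.52) for AGO1 and 1.22 for AGO9. AGO2 (AT1G31280) had 2 reads in each replicate, or 7.91 and 8.35 RPM. The single reads of AGO3 (AT1G31290) and AGO6 (AT2G32940) were both in replicate 1. For AGO7 (AT1G69440) and AGO8 (AT5G21030), a count of 0 allows up to 3 reads as a one-sided limit, or 11.9 RPM in replicate 1 and 12.5 RPM in replicate 2. The two-sided Poisson intervals of the plot of levels reach 14.6 and 15.4 RPM, so low levels were not detectable at this depth.

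**Figure D1:**
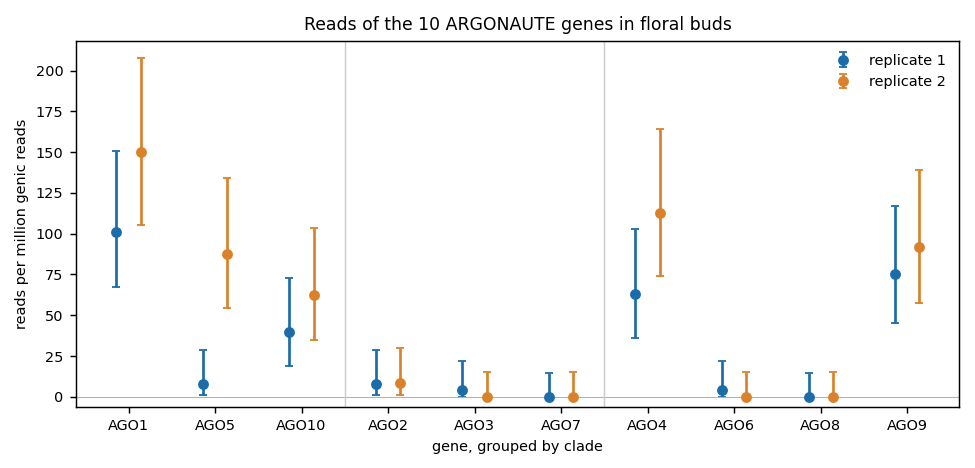
RPM for each of the 10 genes, grouped by clade, with replicate 1 in blue and replicate 2 in orange and exact 95% Poisson intervals as bars. AGO5 has 7.91 RPM in replicate 1 and 87.7 RPM in replicate 2, and AGO7 and AGO8 lie at 0 in both.

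To order the members, RPM was divided by the length of the longest annotated transcript. Each read comes from a single cDNA, so counts need not rise with length, and the division lowers long transcripts. In RPM alone, AGO10 (51.1 on average) lay above AGO5 (47.8), the reverse of their order per kb. Per kb, AGO1 averaged 34.7 ± 9.68 RPM, AGO4 27.2 ± 10.8, AGO9 27.1 ± 3.85, AGO5 14.1 ± 16.7, AGO10 13.5 ± 4.30 and AGO2 2.26 ± 0.0872 (SD, n = 2 each). In this order the replicate ranges of each pair of neighbours from AGO1 down to AGO10 overlapped. AGO1 (27.9 and 41.6 RPM per kb in replicates 1 and 2), AGO4 (19.5 and 34.8) and AGO9 (24.4 and 29.9) nevertheless all lay above AGO10 (10.4 and 16.5), while AGO5 (2.34 and 25.9) spanned the range of AGO10. The values of AGO10 lay above those of AGO2, and those of AGO2 above those of AGO6, although AGO2 and AGO6 rest on 4 reads and 1 read. Within a replicate, neighbours were compared by a two-sided exact binomial test of their reads given their lengths. Benjamini-Hochberg adjustment ran over the 14 tests that had reads, each of a pair in a single replicate. The test takes reads to be in proportion to transcript length, which reads of single cDNAs need not follow. The order of neighbours came from the same counts, so the p-values only describe these pairs. AGO9 exceeded AGO5 in replicate 1 (19 against 2 reads, exact binomial adjusted p = 0.00102) but not in replicate 2 (22 against 21 reads, adjusted p = 0.851). AGO10 against AGO2 passed in replicate 2 (15 against 2 reads, exact binomial adjusted p = 0.0174) and not in replicate 1 (10 against 2 reads, adjusted p = 0.148). AGO2 against AGO6 passed in neither (2 against 1 reads in replicate 1, exact binomial adjusted p = 1, and 2 against 0 in replicate 2, adjusted p = 0.851). Among 27444 protein-coding genes ordered per kb, AGO1 ranked 3825, AGO4 4885, AGO9 4891, AGO5 8381, AGO10 8642 and AGO2 16975. These ranks carry the same division by length.

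By clade, AGO1, AGO5 and AGO10 together had 37.5 reads in replicate 1 and 72 in replicate 2, or 148 and 301 RPM. AGO4, AGO6, AGO8 and AGO9 had 36 and 49 reads, or 142 and 205 RPM, and AGO2, AGO3 and AGO7 had 3 and 2 reads, or 11.9 and 8.35 RPM. The family total was 302 RPM in replicate 1 and 513 RPM in replicate 2, a ratio of 1.70. Other protein-coding genes with transcripts of 3000 to under 4000 nt, the class that holds 9 of the 10 members, also had more reads in replicate 2, with a ratio of 1.96. The ratio was 1.67 for transcripts of 4000 nt and more, 1.15 for 2000 to under 3000 nt, 0.919 for 1000 to under 2000 nt and 0.891 for shorter ones. The part of this library difference in the higher counts of AGO5 and the others was not tested.

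Many ARGONAUTE reads began inside the gene. A read was taken to cover the whole coding region when its outer ends reached from the start codon to the stop codon of an annotated transcript. Exons masked or missing between the ends were not counted against it. For example, 1 such AGO9 read with a masked exon had 2032 aligned nt, against a coding region of 2691 nt. Such a read was found for 6 of the 10 members, against 66.6% of all protein-coding genes. Over the family, 21 of 76.5 reads did so in replicate 1, or 27.5% (95% Wilson interval 18.8 to 38.6), and 95 of 123 in replicate 2, or 77.2% (69.1 to 83.8). The replicate intervals did not overlap, and the median aligned length of the family's reads was 1783 nt in replicate 1 and 3151 nt in replicate 2. The replicates also differed in the other genes of 3000 to under 4000 nt, at 45.2% and 77.1%, and far less over all other protein-coding genes, at 83.2% and 87.1%.

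Each of the 6 members with reads in both replicates had a larger share in replicate 2. AGO1 had 4 of 25.5 reads over its whole coding region in replicate 1 and 20 of 36 in replicate 2, or 15.7% and 55.6%. AGO10 had 1 of 10 and 10 of 15 reads, or 10.0% and 66.7%. AGO5 had 1 of 2 and 17 of 21, or 50% and 81.0%. In the methylation clade, AGO4 had 8 of 16 reads in replicate 1 and 25 of 27 in replicate 2, or 50% and 92.6%, and AGO9 had 6 of 19 and 21 of 22, or 31.6% and 95.5%. AGO2 had 1 of 2 and 2 of 2. The single reads of AGO3 and AGO6 both fell short of the coding start.

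The clades were compared by two-sided Fisher's exact tests of reads within each replicate, adjusted over 6 comparisons. In replicate 2, 93.9% of reads of the AGO4 clade covered the coding region, against 65.3% in the AGO1 clade, a difference of 28.6 points (exact adjusted p = 0.000999). When the cap label was also required, the difference was 24.6 points and the call was lost (exact adjusted p = 0.0513). In replicate 1 the shares were 38.9% (14 of 36 reads) and 15.8% (6 of 38, after rounding 37.5 reads), a difference of 23.1 points that did not pass the threshold (exact adjusted p = 0.108). The tests compare reads of these libraries and not plants. The coding regions of AGO4 and AGO9 (2775 and 2691 nt) are shorter than those of AGO1, AGO5 and AGO10 (3147, 2994 and 2967 nt), and the part of length in the difference was not tested. With 3 and 2 reads, the AGO2 clade could not be separated from either.

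**Figure D2:**
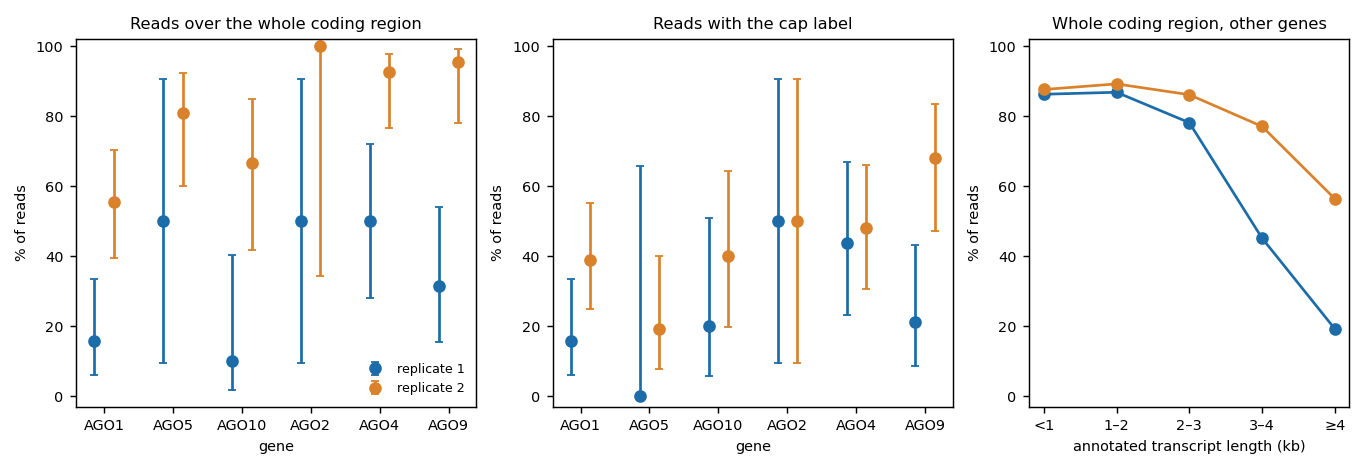
Share of reads over the whole coding region (left) and with the cap label (middle) for the 6 members with reads in both replicates, with 95% Wilson intervals, and the first share for the other protein-coding genes by transcript length (right), replicate 1 in blue and replicate 2 in orange. Replicate 2 is above replicate 1 in every member on the left, and other genes of 3 to 4 kb show 45.2% in replicate 1 and 77.1% in replicate 2.

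Reads were then sorted by exon chain. The chain of an annotated transcript was found in 16 of the family's reads in replicate 1 and 69 in replicate 2. A chain that matched the annotation but lacked its 5′ introns was found in 42.5 reads in replicate 1 and 19 in replicate 2, whereas a missing 3′ part was seen in 3 and 2 reads. Reads with an exon that the authors' pipeline had masked for alignment errors numbered 6 and 22, reads without any intron 6 and 3, and reads with another chain 3 and 8. The class without the 5′ introns held 20.5 of 25.5 AGO1 reads in replicate 1 and 13 of 36 in replicate 2, or 80.4% and 36.1%. It held 7 of 10 and 4 of 15 AGO10 reads, or 70% and 26.7%, and the single reads of AGO3 and AGO6. In AGO4 it held 4 of 16 and 0 of 27 reads, and in AGO9 8 of 19 and 1 of 22. Masked and intronless reads that began inside a gene are not in these counts. Among them were an intronless AGO4 read of replicate 2, from spliced position 2829, and 3 intronless and 2 masked AGO9 reads of replicate 1.

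**Figure D3:**
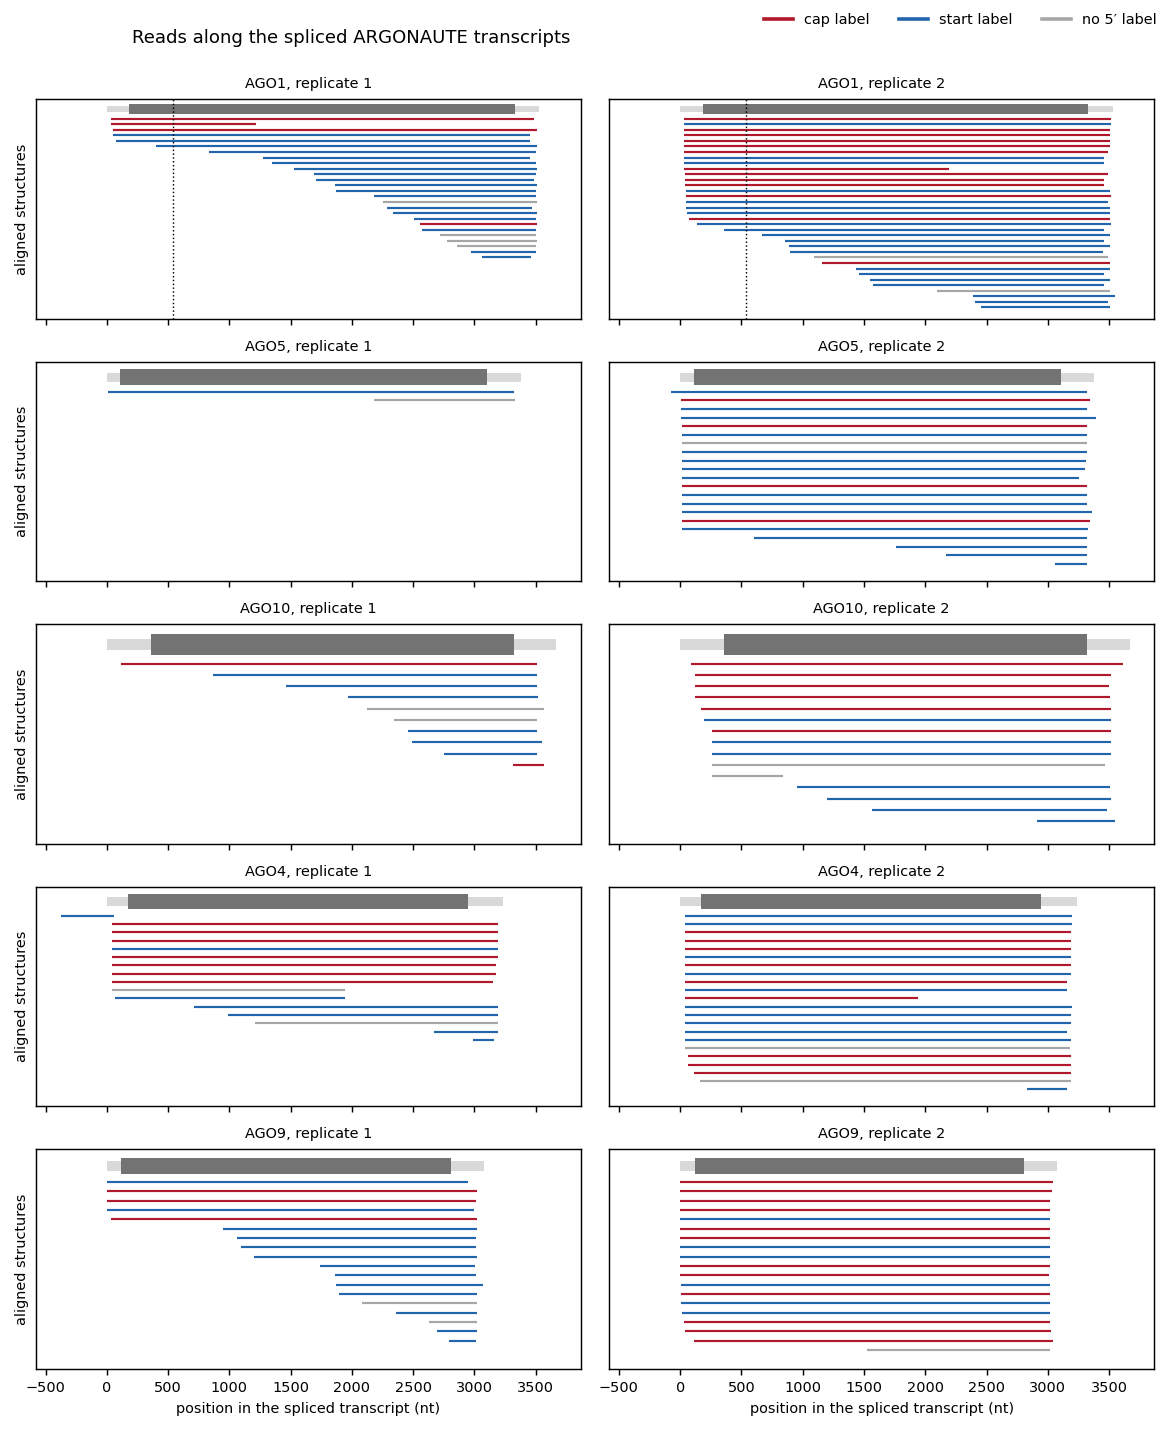
Aligned structures of AGO1, AGO5, AGO10, AGO4 and AGO9 along the spliced transcript in nt, replicate 1 on the left and replicate 2 on the right, with the coding region as a dark box, the 5′ label as line colour and the miR168 site of AGO1 as a dotted line. A line is 1 unique structure and can stand for more than 1 read. Most 3′ ends align, while 5′ ends are spread along AGO1 and over AGO9 in replicate 1.

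A 5′ end carries the cap label when the read has an extra G that the genome lacks, the mark left when reverse transcriptase copies the cap. Over the family 18 of 76.5 reads had it in replicate 1, or 23.5% (15.5 to 34.4), and 53 of 123 in replicate 2, or 43.1% (34.7 to 51.9), against 34.1% and 52.1% in the other genes of 3000 to under 4000 nt and 57.6% and 59.1% of all genic reads in the same libraries. Among reads over the whole coding region the share was higher, with 15 of 21 capped in replicate 1 and 50 of 95 in replicate 2. Among the remaining reads it was 3 of 55.5 and 3 of 28. A further start label, for a 5′ end with the adapter but no extra G, brought the share with any 5′ label to 85.0% and 93.5%.

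AGO9 had 4 of 19 reads capped in replicate 1 and 15 of 22 in replicate 2, AGO4 had 7 of 16 and 13 of 27, AGO1 had 4 of 25.5 and 14 of 36, and AGO10 had 2 of 10 and 6 of 15. AGO5 was low, with 0 of 2 and 4 of 21, although most of its reads were long. Of its reads over the whole coding region, 4 of 17 were capped in replicate 2, or 23.5% (9.56 to 47.3). In the same replicate and class of reads, 12 of 25 were capped in AGO4, or 48% (30.0 to 66.5), and 15 of 21 in AGO9, or 71.4% (50.04 to 86.2). AGO1 had 12 of 20, or 60% (38.7 to 78.1), and AGO10 6 of 10, or 60% (31.3 to 83.2). The interval of AGO5 overlapped those of AGO4, AGO1 and AGO10 but not that of AGO9, and differences between the genes were not tested. An extra G cannot be told apart from a G in the genome, and no nuclear read of either library was capped just after a genomic G (0 of 18368.9 and 0 of 15476.8 reads). Of the AGO5 reads over the whole coding region, 0 of 1 and 0 of 17 began after a genomic G, and the cause of their low cap share was not tested. Between clades, the cap share in replicate 2 was 57.1% in the AGO4 clade and 33.3% in the AGO1 clade (Fisher's exact adjusted p = 0.0879), which missed the threshold.

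Capped ends were merged within 20 nt, and 7 sites in 5 members had at least 2 capped reads. AGO4 had the sharpest start: all 17 capped reads of its main site (7 in replicate 1 and 10 in replicate 2) began at chr2:11542353. Of its 43 reads of any label, 25 began at that base. It lies 4 nt inside the nearest annotated start of any transcript, but at position 39 of the transcript whose chain AGO4 reads matched. AGO9 had 15 capped reads at chr5:7192240, of which 14 began at that base, 1 nt inside the annotated start. AGO1 had 15 capped reads at chr1:17892568, 10 of them at that base. It is 28 nt inside the nearest annotated start and 149 nt of spliced sequence before the start codon. AGO5 spread over chr2:11871386 to 11871393, with 4 capped reads, and its most-used base of any label, 11871389, had 8 reads of which 1 was capped. Minor sites were found in AGO4 (2 reads) and AGO9 (3 reads), at positions 63 and 29 of the spliced transcript.

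AGO10 has alternative first exons. The first, at chr5:17610744-17611005, was used by 6 capped reads, 1 in replicate 1 and 5 in replicate 2, and by 1 read with the start label. The capped reads gathered at chr5:17610861, with 4 of them within the merged site. That base is at position 118 of the spliced transcript. Relative to the nearest annotated start, chr5:17610972, it lies at -111 nt, so it matched no annotated start closely. The second annotated first exon, at chr5:17610972-17611361, had 3 reads in replicate 2 of which 0 were capped, and the farthest, at chr5:17611376-17611582, had 1 capped read in replicate 2. With so few reads, the use of the exons was not compared.

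The 3′ ends were more regular. The 3′ label was kept on 93.5% of the family's reads in replicate 1 and 97.6% in replicate 2, and 1 read of the family ended before a stretch with at least 12 A in 20 nt. Ends within 20 nt of a most-used base were merged, and 14 sites had at least 2 reads. Sites made this way can adjoin and need not be separate groups of ends. AGO1 had 3 of these sites. Around chr1:17886105, 180 nt after the stop codon, 38.5 reads ended (17.5 and 21 by replicate). Another 13 (4 and 9) ended around 17886157, 128 nt after it, and 7 (3 and 4) around 17886126. The first site spanned 17886100 to 17886125 and the last 17886126 to 17886140, with no gap between them. AGO9 had a single main site, with 36 of 41 reads around chr5:7198324. AGO4 had 33 of 43 reads around chr2:11536545, 19 of them at that base, and 6 around 11536578. AGO10 had 17 of 25 reads around chr5:17616751, 13 of them at that base, and AGO5 had 18 of 23 around chr2:11876928. All 4 AGO2 reads ended within the 20 nt up to chr1:11185392, 4 nt inside the annotated end.

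AGO4 also had an internal end. In both replicates (2 reads and 1 read), reads stopped at chr2:11538668, 2 nt into intron 13 of 22 and 1001 nt before the stop codon. None carried the 3′ label. The 20 genomic bases that follow are shown because an A-rich run is where oligo-dT could prime, and they hold 7 A.
Downstream of the AGO4 internal end: tagatatctcttaaatccag
The run lies at chr2:11538648-11538667 on the minus strand.

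Of 160 annotated introns in the family, 124 were crossed by reads, and 4 had a read that retained them. Across all protein-coding genes, 3.14% of 47702 annotated introns with at least 10 reads were retained in at least 10% of them. In the family this held for 1 of 103 introns, which is no more than that background. The intron was intron 6 of AGO9, at chr5:7194713-7194777 on the plus strand, 65 nt long and within the coding region.

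Intron 6 of AGO9 was retained in 1 read and spliced in 6 in replicate 1, and retained in 6 and spliced in 15 in replicate 2, or 25% of 28 reads over both (95% Wilson interval 12.7 to 43.4). Of the other 21 introns of AGO9, 20 had no retaining read among 26 to 37 crossing reads each, and intron 15 had 1 of 33. Of the 7 retaining reads, 7 covered the whole coding region, 7 kept the 3′ label and 4 were capped. Of the 21 spliced reads 15 were capped. In 4 of the 7 this was the only intron kept in an otherwise annotated and unmasked chain. Retention at 25% or above was found in 1.03% of the introns of all genes. The ends of the intron and the first stop codon in frame are printed because together they show that the splice sites have GT and AG and what a retaining read would encode. Capitals mark GT, AG and the stop codon.
AGO9 intron 6 start: ctggaacaagGTacatcattttcttttatg
AGO9 intron 6 stop codon: atgtattttatcTGAttttatctcatc
AGO9 intron 6 end: atctgattttatctcatcAGgctcgacgtg
The intron's length is not a multiple of 3. Read in frame, a retaining transcript reaches the stop codon TGA inside the intron after 304 codons, against 896 codons for the annotated AGO9 protein.

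Intron 13 of AGO5, at chr2:11875234-11875296 on the plus strand and 63 nt long, was retained in 0 reads in replicate 1 and 2 in replicate 2, against 19 spliced reads over both. Its stop codon in frame comes at once, 4 nt after the intron begins.
AGO5 intron 13 stop codon: aatgtcaaggtcTAGtcatctgtgctt
It would leave 692 of 997 codons. Of the 2 retaining reads 0 were capped, and the 1 that covered the coding region had a masked exon. Intron 7 of AGO10 was retained in 1 read.

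**Figure D4:**
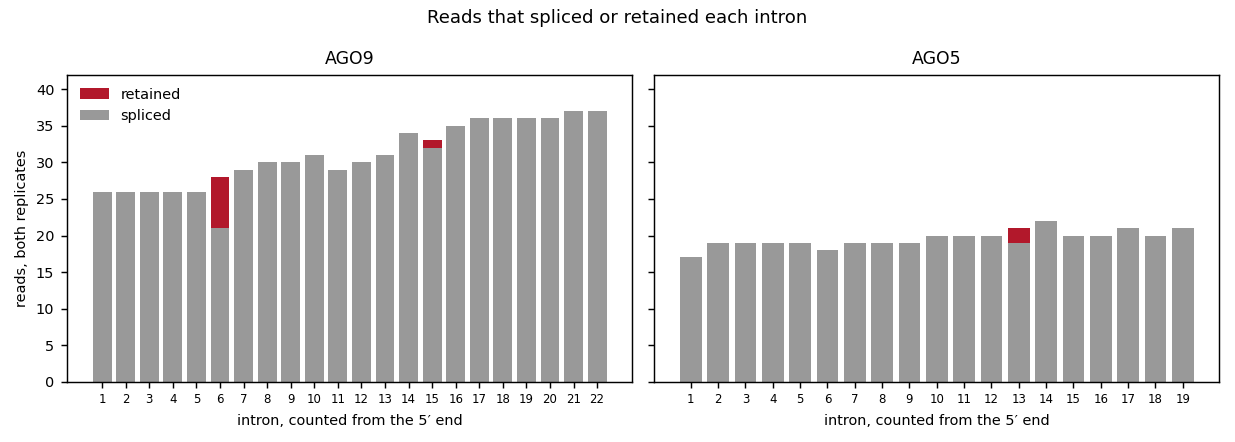
Reads over both replicates that spliced (grey) or retained (red) each intron of AGO9 (left) and AGO5 (right), counted from the 5′ end. Intron 6 of AGO9 has 7 retaining and 21 spliced reads, and intron 13 of AGO5 has 2 and 19.

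In AGO1, the RefSeq transcripts differ by acceptors 6 nt apart in an intron of the coding region, which adds or removes 2 codons. The acceptors lie at chr1:17890644 and 17890650 on the minus strand. Their sequence is given with the AG of each in capitals, the nearer one first.
AGO1 acceptors: aacatgttAGaatcAGgtatattccggt
The nearer acceptor was used by 2 of 7 reads in replicate 1 and 13 of 28 in replicate 2, or 28.6% (8.22 to 64.1) and 46.4% (29.5 to 64.2). Both forms were present in both replicates. Among reads with a full annotated chain, 10 had the farther acceptor and 9 the nearer. The third RefSeq transcript of AGO1, with an added 3′ intron of 575 nt, had 0 reads. In AGO4, all 23 reads with an annotated chain matched 1 of its 2 transcripts.

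Outside the annotation, 48 junctions were seen in the family's reads, of which 44 came only from reads with a masked exon, where an aligned gap need not be an intron. The other 4, in AGO1, AGO2 and AGO4, had 1 read each and none had GT and AG. Of these, the AGO4 gap at chr2:11540789-11540866 nearly coincides with annotated intron 3, at chr2:11540788-11540865. Both are 78 nt long, so this gap need not be a further intron. In the AGO2 read, the gap of 511 nt at chr1:11183544-11184054 removed 426 coding nt. The 7 bases ggctcgt occur at both of its edges, and the windows are printed for that reason, with the first and last 2 bases of the gap in capitals.
AGO2 gap start: ataaaggctcGTaatggaccgagcgggtat
AGO2 gap end: tcgtaagcatggtggggcTCgtccaactct
The longest of the 4, 1621 nt in AGO4, had 6 shared bases at its edges, and the gap of 318 nt in AGO1 had 3.

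At the microRNA sites, no 5′ end was found at the cut. The base 3′ of the predicted cut in AGO1 is chr1:17891538, position 537 of the spliced transcript. Of 43.5 AGO1 reads without the cap label, 0 began there or within 5 nt, which allows a share of up to 6.90%. The nearest uncapped end lay 134 nt away, with 12 reads beginning upstream of the cut and 31.5 downstream. The cut position was crossed by 6 AGO1 reads in replicate 1 and 22 in replicate 2. All 4 AGO2 reads crossed the miR403 cut, 2 in each replicate, and the single AGO3 read did not reach its site. The reads were chosen by a poly(A) tail, which the 3′ cut product keeps and the 5′ product does not.

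A list of 32 other RNA silencing genes was counted in the same way, from the Dicers and RNA-dependent RNA polymerases to the factors of RNA-directed DNA methylation. Of the 32, 31 had at least 1 read (71.7% of all protein-coding genes), 26 had reads in both replicates (58.4%), 11 had at least 10 reads (35.9%) and 26 had a read over the whole coding region (66.6%). The share with at least 10 reads was close to that of all genes. Their median was 4.67 RPM per kb, against 7.86 for the 10 ARGONAUTE genes and 5.12 over all protein-coding genes. Without division by length, the medians over both replicates were 7, 13.5 and 4 reads, so the list lay above all genes. FBW2, an F-box protein that targets AGO1 for degradation, had the most reads of the list, with 29 in replicate 1 and 22 in replicate 2. It was the only list gene at or above AGO1 per kb, at 43.2 RPM per kb. Without division by length the order was reversed, with a mean of 125.5 RPM for AGO1 and 103 RPM for FBW2. SE, a zinc finger partner of DCL1 in microRNA processing, had 14 and 24 reads, and DRB4, a double-stranded RNA binding partner of DCL4, had 8 and 11. At the low end, SQN, a cyclophilin that aids AGO1, had 0 reads. NRPD1, the largest subunit of RNA polymerase IV, and SPT5L, a partner of AGO4, each had 1 read in replicate 1 and 0 in replicate 2. RDR2 and CLSY1 also had a single read each.

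**Figure D5:**
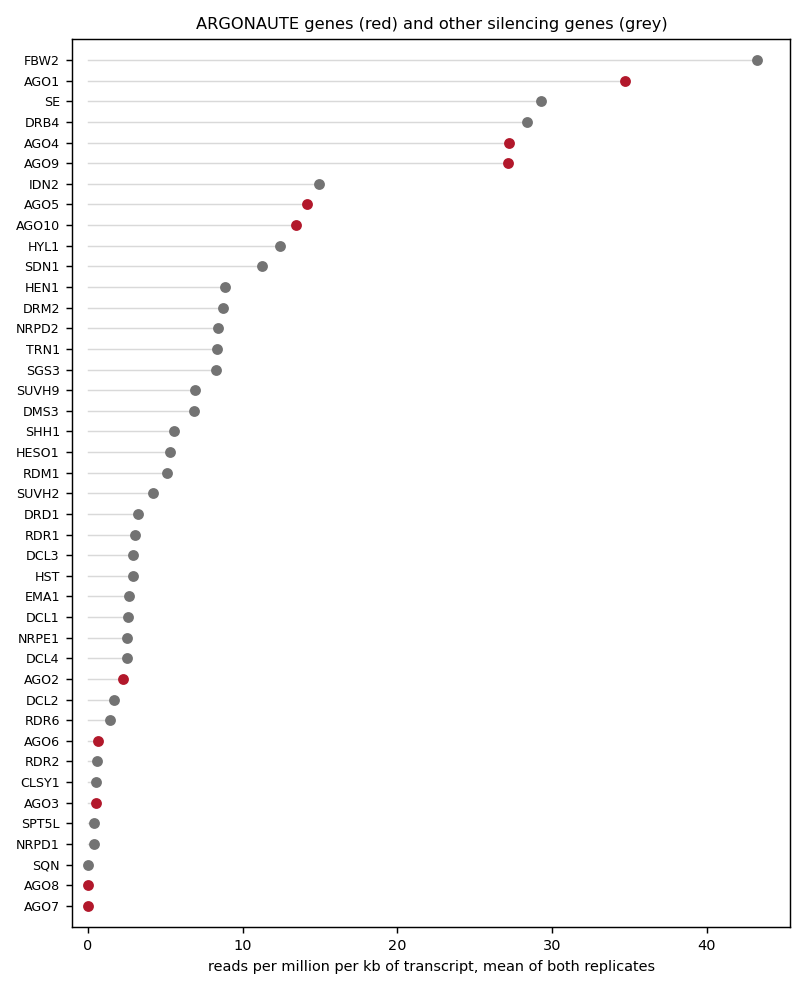
Mean RPM per kb of transcript over both replicates for the 10 ARGONAUTE genes (red) and 32 other silencing genes (grey), ordered by level. FBW2 at 43.2 is above AGO1 at 34.7, while SQN, AGO7 and AGO8 lie at 0. In mean RPM without division by length, AGO1 (125.5) is above FBW2 (103).

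The libraries carried the markers of the labelled tissue. All 6 floral organ identity genes counted (AP1, AP3, PI, AG, SEP1 and SEP3) had reads in both replicates, from 37 for AP3 to 160 for SEP3 over both, and the tapetum gene A9 had 64. The seed storage genes CRA1 and CRU3 had 0 reads.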

How the data were processed

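Full-length non-chimeric PacBio reads of 2 Col-0 floral bud libraries were used. Per the study's methods, the authors aligned them to TAIR10 with minimap2 and converted them with Bookend, which labelled ends, masked exons with many errors and removed 3′ labels at A-rich sequence; versions are not given in the sources used here. The deposited values are expected counts of reads per unique structure, with multi-mapped reads split, and only 0.5 of an AGO1 read was such a part. Reads were assigned to the RefSeq TAIR10.1 gene with the largest same-strand exonic overlap, at least 1 nt. No read lay past a chromosome end of that genome and 98.1% of aligned introns had GT and AG. AT5G21030 is called AGO8 here and has no symbol in RefSeq. Fractional counts were rounded for Wilson, binomial and Fisher's tests, run in Python 3.11.15 with SciPy 1.17.1. The assignment, coding span and chain classes were tested on simulated reads. The replicates are labelled as biological. The p-values come from read counts within a library, taken as independent reads, and measure no spread between replicates or plants. With 2 against 2 values, an exact permutation test cannot go below 0.333. The named genes are the 10 members and the 3 most-read and 3 least-read genes of the silencing list, ties included. The cap labels after a genomic G, the transcript length classes and the intron retention background were added after values were seen. Members and lists were chosen with earlier results of these data known. Alternatives covered read assignment, scaling, label rules and single replicates.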

Additional observations from a re-analysis of the deposited data

How the results depend on the processing

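Under settings other than leaving out a replicate, 132 recomputed values kept their direction, their side of the threshold and their size within the replicate spread, 22 moved, 1 lost its call and 3 changed sign. With 2 replicates, a mean level or share without either always stays within that spread, so it shows no stability. The spread was also wide enough to hide large changes. Requiring both ends within 100 nt of the annotation took the mean annotated-chain share of AGO10 from 31.7% to 3.33%. It counted as kept because the replicate SD was 30.6 points. In the AGO1 clade the same rule took the share from 32.3% to 23.3% (SD 23.1 points). AGO5 was 87.7 RPM without replicate 1 and 7.91 RPM without replicate 2. The difference between the AGO4 and AGO1 clades in reads over the whole coding region in replicate 2 fell to 24.6 points when the cap label was also required (Fisher's exact adjusted p = 0.0513); the cause was not tested. With that setting, the AGO4 clade minus the AGO2 clade became -2.78 points in replicate 1 and 5.10 points in replicate 2, against 5.56 and -6.12, none of them past the threshold. Counting any 5′ label turned the cap difference of these clades in replicate 2 to -6.12 points, against 7.14. Among reads over the whole coding region, the mean cap share of both replicates was 48.4% in the AGO1 clade, 75.0% in the AGO2 clade, 68.6% in the AGO4 clade and 62.0% over the family. Over all reads, the mean share with any 5′ label was 87.9%, 100%, 90.0% and 89.2% in the same order. The mean share with the cap label over all reads was 24.7%, 41.7%, 43.9% and 33.3%. Requiring 5 capped reads left 3 capped sites of 7, and leaving out a replicate gave 3 to 7. Merging 3′ ends within 50 nt gave 9 sites of 14. No paired analysis was possible because the series has 1 group. Depth limits the members below AGO10: with 4 reads or fewer over both replicates, no pair of neighbours among them passed the exact test, and shares and splicing have wide intervals. Most AGO5 reads came from replicate 2.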

Other observations

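Reads on the opposite strand of the family were rare. AGO1 had 1 antisense read in each replicate, AGO5 and AGO10 had 1 each in replicate 2, and the other members had 0. A count of 0 allows up to 3 reads, so the members were not compared.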
